A study of Mus musculus with 5 samples.

Results

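The genes described here encode the tricarboxylic acid (TCA) cycle, the entry of pyruvate into it, and the reactions that feed carbon into it or draw carbon out. They are 29 genes chosen by name for these roles and not by a rule on their values, though earlier results of these data were known. All 29 were found among the 29267 genes of the deposited tables. RNA was sequenced from mouse embryonic fibroblasts (MEF, primary cells of the embryo's connective tissue) of the ICR strain while they were being reprogrammed towards pluripotency. At day 4, a library of cells expressing Flag, an epitope tag used as the control, stood beside a library of cells expressing CypD, the matrix protein cyclophilin D, which regulates opening of the mitochondrial permeability pore and is encoded by Ppif. At day 8, an untreated control library stood beside a library of cells treated with mastoparan, a peptide of wasp venom, and one of cells treated with paraquat, a herbicide that cycles electrons to oxygen. The sample labels give CypD expression as the genotype of all 3 day-8 samples, while the series design mentions CypD at day 4 alone. The reprogramming factors, the way CypD was introduced and the doses are not stated in the labels, and nothing says whether cultures were pooled.

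Each group holds 1 library, which leaves every difference without a replicate check, and no p-value is given. The label of the CypD library can be checked by Ppif, which had 112 counts in the Flag library and 2629 in the CypD library, and 90, 95 and 79 counts in the control, mastoparan and paraquat libraries of day 8. None of the day-8 libraries therefore showed the raised Ppif that their genotype label would give, and the day-8 groups are called by their treatment. The libraries held between 2426015 and 3426702 expected counts. All 14 fibroblast markers examined were present, with a summed level between 7558 and 7934 CPM (counts for each 1000000 counts of the scaled library). This sum holds markers that differed both ways. Vim, Col1a2, Dcn, Twist1, Prrx1 and Pdgfra were lower in every day-8 library than in both day-4 libraries. Col1a1, Thy1, Postn and Pdgfrb were higher in every day-8 library, and the remaining fibroblast markers overlapped. The 8 epithelial markers summed to 208 CPM in the Flag and 193 CPM in the CypD library, and to 658, 662 and 747 CPM in the control, mastoparan and paraquat libraries. Neural markers summed to between 211 and 222 CPM at day 4 and between 136 and 154 CPM at day 8. Of 8 pluripotency markers 2 averaged at least 1 CPM, with sums between 3.76 and 10.4 CPM. In bulk RNA, fewer cells of a type and less RNA per cell cannot be told apart.

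In the TCA cycle, acetyl-CoA made from pyruvate joins oxaloacetate to give citrate, which is oxidised stepwise back to oxaloacetate while NADH is passed to the respiratory chain. Pyruvate enters the mitochondrion through a carrier and is converted by pyruvate dehydrogenase to acetyl-CoA or by pyruvate carboxylase to oxaloacetate, a filling reaction called anaplerosis. Citrate that leaves through the citrate carrier is cleaved in the cytosol to acetyl-CoA for lipid synthesis and for histone acetylation, which links the pathway to chromatin in reprogramming cells. 2-oxoglutarate, an intermediate of the cycle, is also a cosubstrate of the TET and histone demethylases.

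Levels between genes are compared per length, as deposited TPM (transcripts for each 1000000 transcripts of a library). Of the 29 genes, 27 had a mean TPM over the 5 libraries above 14.4, the median of the 13584 genes that averaged 1 CPM or more. The malate dehydrogenases were the most abundant. Mdh2, the mitochondrial enzyme that closes the cycle, was at 608 TPM in the Flag library, 612 in CypD, 564 in the control, 573 in mastoparan and 595 in paraquat. Mdh1, its cytosolic counterpart in the malate-aspartate shuttle, was at 506, 525, 457, 464 and 344 TPM in the same order. The lowest were the pyruvate carboxylase gene Pcx, between 7.64 and 10.1 TPM, and Me3, a mitochondrial malic enzyme, between 4.28 and 9.30 TPM. Pcx, the enzyme of pyruvate anaplerosis, thus stood far below the pyruvate dehydrogenase genes in each library, where Pdha1 (the catalytic alpha subunit) ranged from 116 to 194 TPM. Glud1, which turns glutamate into 2-oxoglutarate, ranged from 109 to 153 TPM and the mitochondrial aspartate aminotransferase gene Got2 from 135 to 217 TPM. Got2 shares 35.7% of its sequence windows (stretches of 49 bases) with the annotated gene Gm10874, which had 0 counts in all 5 libraries, so its level is uncertain. It was the only one of the 29 with a shared fraction of at least 20%.

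**Figure D1:**
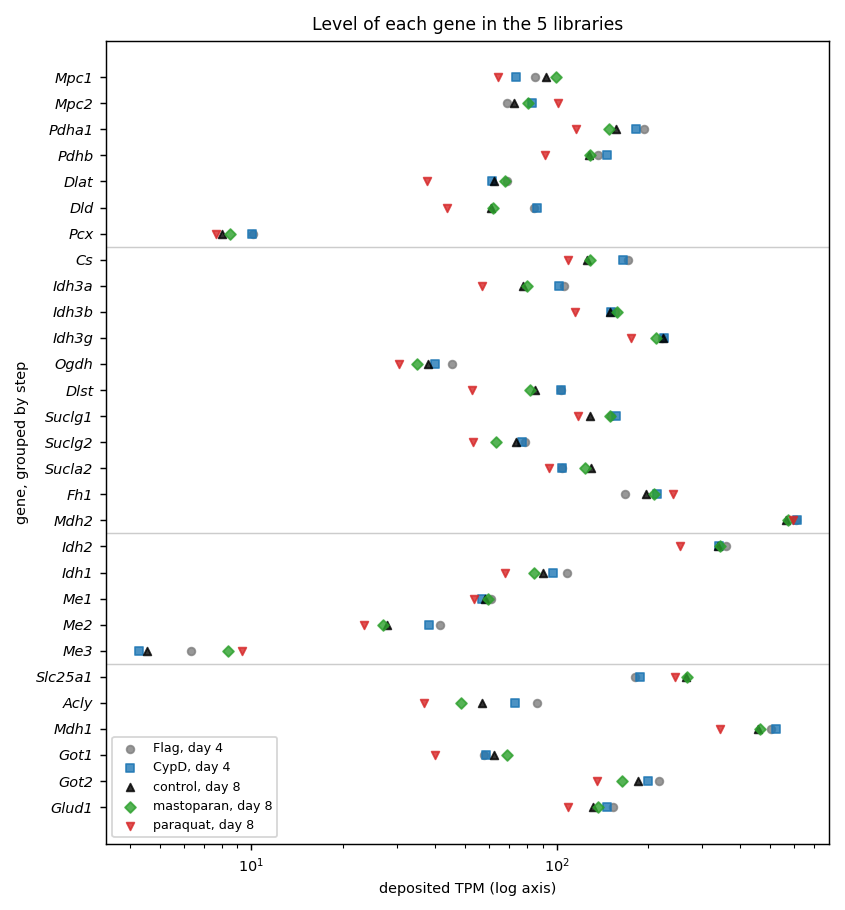
Deposited TPM (log axis) of each of the 29 genes in the 5 libraries, 1 marker per library, with grey lines between pyruvate entry, the cycle, the NADPH and malic enzymes, and citrate export and shuttles. Mdh2 and Mdh1 lie at the right end, and Pcx and Me3 at the left, in every library, while the paraquat markers lie at the low end for most genes.

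Isozymes and subunits of the same enzyme were compared by their part of the family's summed TPM. Idh2, the mitochondrial NADP-dependent isocitrate dehydrogenase, held between 76.8% and 80.2% of the summed TPM of Idh1 and Idh2. Me1, the cytosolic malic enzyme and a source of NADPH, held between 56.1% and 64.4% of the malic enzyme transcripts, Me2 between 27.0% and 38.4%, and Me3 between 4.30% and 10.8%. Succinyl-CoA ligase pairs its alpha subunit Suclg1 with Sucla2 to make ATP or with Suclg2 to make GTP. Sucla2 held 57.0% and 57.6% of the summed TPM of this pair in the Flag and CypD libraries, and 63.8%, 66.2% and 64.0% in the control, mastoparan and paraquat libraries. The day-8 libraries thus all lay above the day-4 libraries for the share of the ATP-forming subunit. Sucla2 itself was at 105 and 104 TPM at day 4 and at 129, 124 and 94.8 TPM at day 8. Suclg2 was at 78.8 and 76.8 TPM, then at 73.4, 63.5 and 53.3 TPM. The subunits of the NAD-dependent isocitrate dehydrogenase, the rate-controlling enzyme of the cycle, stood in the order Idh3g, Idh3b, Idh3a in all 5 libraries. Idh3a, the catalytic subunit, held 21.9% and 21.4% of their transcripts at day 4 and between 16.4% and 17.8% at day 8. The mitochondrial pyruvate carrier works as a pair of Mpc1 and Mpc2. Mpc1 held 55.2% of their summed TPM in Flag, 47.1% in CypD, 55.9% in the control, 55.3% in mastoparan and 38.9% in paraquat. The mean transcript length deposited for Mpc2 was 975, 779, 882, 865 and 736 bases in the same order. On scaled CPM, Mpc1 and Mpc2 were at 47.7 and 42.6 in Flag and at 44.3 and 42.0 in CypD. They were at 51.6 and 42.2 in the control and at 47.2 and 58.9 in paraquat.

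**Figure D2:**
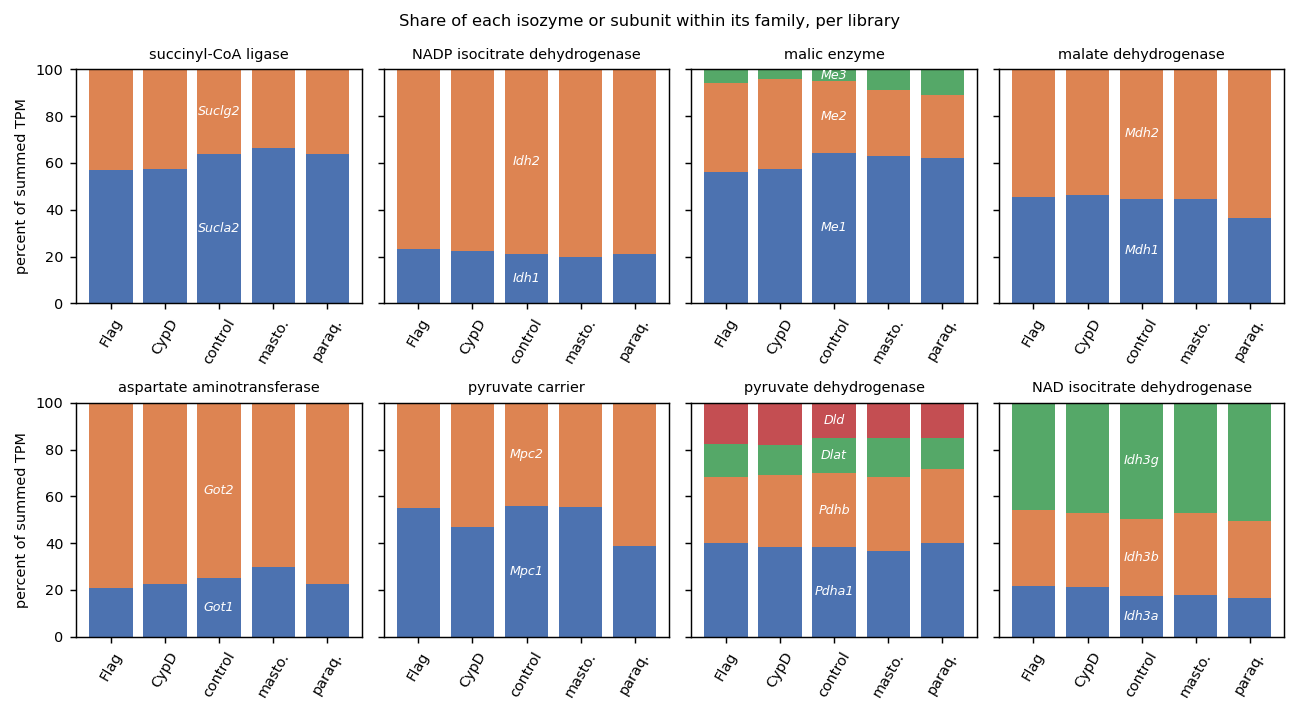
Percent of the summed deposited TPM held by each isozyme or subunit of 8 families (bars add to 100), in the Flag and CypD libraries of day 4 and the control, mastoparan and paraquat libraries of day 8. Idh2 and Got2 hold the larger part in every library, and the Sucla2 part is larger in the 3 day-8 bars than in the 2 day-4 bars.

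The first comparison asks whether expression of CypD for 4 days went with another level of these genes. The 2 libraries were close: 28 of the 29 genes lay between 1.09 times lower and 1.15-fold higher in the CypD library, and Me3 was the exception. Folds are ratios of counts scaled by TMM factors (a scaling for the make-up of each library), and their 95% exact Clopper-Pearson intervals cover counting error only. For those 28 genes the lowest interval bound was 0.726-fold (Mpc1) and the highest 1.42-fold (Pcx), so a difference of 1.5-fold lay outside the counting interval of all 28. The median log2 ratio of the 29 was 0.01, with 15 above and 14 below 0. The median of all 13244 genes tested was -0.02, with 47% of them above 0, and 47.8% of those that averaged at least 20 CPM.

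Me3 had 27 counts in the Flag library and 13 in the CypD library, or 10.7 and 3.76 CPM of this mitochondrial malic enzyme. It had 21, 28 and 30 counts in the control, mastoparan and paraquat libraries, which is 6.81, 9.83 and 13.0 CPM. The CypD library was thus the lowest of the 5, at 2.83 times below Flag (1.41 to 5.97), a log2 ratio of -1.39 with a pseudocount of 0.5 CPM. On deposited TPM the ratio was smaller, at a log2 ratio of -0.51 (6.33 against 4.28 TPM), and the mean transcript length deposited for the gene was 2575 bases in the Flag and 1357 bases in the CypD library. Me3 (mm10 chromosome 7, 89632392 to 89854359, plus strand) was the only one of the 29 genes at least 1.5-fold lower, and 0 were at least 1.5-fold higher. Of all genes tested, 5.75% were at least 1.5-fold lower and 5.22% at least 1.5-fold higher. Among genes of at least 20 CPM, a level Me3 does not reach, these shares were 0.472% and 0.281%.

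Fh1, fumarase (mm10 chromosome 1, 175600374 to 175625635, minus strand), had 425 counts in Flag, 665 in CypD, and 527, 490 and 429 in the control, mastoparan and paraquat libraries. In CPM these were 168, 193, 171, 172 and 186, with CypD highest. CypD was 1.15-fold above Flag (1.02 to 1.30). Mdh1 (mm10 chromosome 11, 21556787 to 21572367, minus strand) had 1468 counts in Flag and 2197 in CypD, and 1671, 1699 and 1395 in the day-8 libraries. In CPM it was at 579, 636, 542, 596 and 604, again with CypD highest, at 1.10-fold above Flag (1.03 to 1.17). These were the 2 of 29 genes (6.90%) with a counting interval above 1, against 4.13% of all genes tested and 5.04% of those at 20 CPM or more. Me3 was the 1 gene with an interval below 1 (3.45%, against 4.19% and 4.96%). Both shares lay near the background. Pdhb, the beta subunit of pyruvate dehydrogenase (mm10 chromosome 14, 8165996 to 8173025, minus strand), had a ratio between those of Fh1 and Mdh1, 1.11-fold, with an interval that holds 1 (0.961 to 1.27). It had 333 counts in Flag, 502 in CypD, 394 in the control, 379 in mastoparan and 257 in paraquat, or 131, 145, 128, 133 and 111 CPM, with CypD the highest and paraquat the lowest. Genes of steps known to control the cycle were alike in both libraries, with citrate synthase (Cs) at 318 and 318 CPM and Idh3a at 167 and 167 CPM.

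Other genes of the pathway, 43 in all, were taken from a list that holds the rest of the cycle, the pyruvate dehydrogenase kinases and phosphatases, lipoate synthesis, glutamine and glutamate use, further carriers, other entries to the cycle and regulators. Of the 41 tested, 1 (2.44%) was 1.5-fold or more higher with CypD and 2 (4.88%) were 1.5-fold or more lower. Over all genes these shares were 5.22% and 5.75%. The median log2 ratio of the 41 was -0.03, against -0.02 for all genes. Among the largest ratios at 5 CPM or more were those of Lipt1 (lipoate transfer, 22 and 45 counts, log2 ratio 0.56), Esrra (a nuclear receptor that activates mitochondrial genes, 156 and 285 counts, 0.42) and Lipt2 (0.36). Esrra was 1.34-fold higher (1.10 to 1.64), and the interval of Lipt1 held 1.

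The same question was put to mastoparan at day 8. Of the 29 genes, 20 had a log2 ratio above 0 and 9 below, with a median of 0.06. The median of all 13651 genes tested was 0.01, and 50.9% of them (52.5% of those at 20 CPM or more) lay above 0. With library totals in place of TMM, 16 of the 29 lay above 0 and 13 below, against 46.4% of all genes above. With length and GC trends removed, 17 lay above and 12 below, with a median of 0.01, against 49.9% of all genes above. No gene was at least 1.5-fold higher or lower, against 5.01% and 5.87% of all genes (0.266% and 0.354% of those at 20 CPM or more). For the 28 genes other than Me3, folds ran from 1.11 times lower (Suclg2) to 1.21-fold higher (Suclg1), and interval bounds from 0.765 (Suclg2) to 1.55 (Pcx).

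Suclg1, the alpha subunit of succinyl-CoA ligase (mm10 chromosome 6, 73248382 to 73276911, plus strand), had 378 counts in Flag, 540 in CypD, 406 in the control, 454 in mastoparan and 338 in paraquat. In CPM these were 149, 156, 132, 159 and 146, so the control was the lowest of the 5 libraries and mastoparan the highest. Mastoparan was 1.21-fold above the control (1.06 to 1.39). Me1 (mm10 chromosome 9, 86581371 to 86695953, minus strand) had 284, 402, 363, 398 and 341 counts in the same order, or 112, 116, 118, 140 and 148 CPM. The mastoparan and paraquat libraries lay above the other 3, and mastoparan was 1.19-fold above the control (1.03 to 1.37). On deposited TPM this difference was not seen, with 58.4 TPM in the control and 59.8 in mastoparan. Mdh1 was 1.10-fold higher (1.03 to 1.18), also with a log2 ratio of 0.02 on deposited TPM. These 3 of 29 genes (10.3%) had an interval above 1, against 4.01% of all genes tested and 5.42% of those with at least 20 CPM. None of the 29 had an interval below 1, against 3.26% of all genes and 3.47% of those at 20 CPM or more. Me3 had the largest log2 ratio, 0.50, from 28 against 21 counts with an interval of 0.790 to 2.67 that holds 1. Mpc2 had 135 against 130 counts and 1.12-fold (0.877 to 1.44).

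Among the other pathway genes at 5 CPM or more, the largest ratios were those of Gls2 (a glutaminase, 26 against 43 counts, log2 ratio -0.59 but 0.18 on deposited TPM), Pdp1 (a pyruvate dehydrogenase phosphatase, 0.51), D2hgdh (which oxidises D-2-hydroxyglutarate, 68 against 105 counts, -0.50) and Dhtkd1 (0.45). Of these, D2hgdh had an interval that leaves out 1, at 0.509 to 0.960-fold. Over the 41 tested the median was 0.00, with 2 genes (4.88%) at least 1.5-fold higher and 2 (4.88%) lower. Over all genes the median was 0.01, and the shares were 5.01% and 5.87%.

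**Figure D3:**
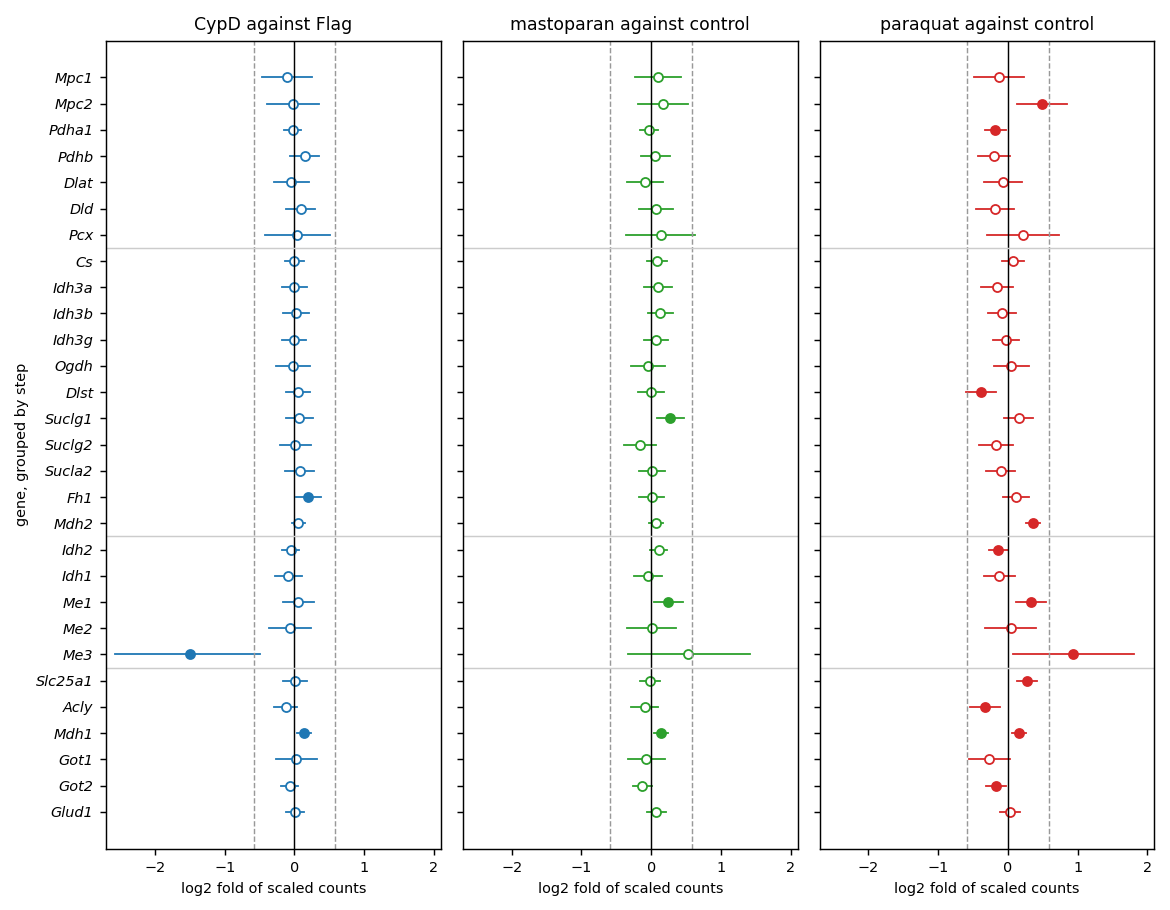
Log2 fold of scaled counts with its 95% counting interval for the 29 genes in the 3 comparisons. Filled markers have an interval that leaves out 1-fold, dashed lines mark 1.5-fold, and grey lines separate the steps. Nearly all points lie between the dashed lines, and Me3 lies outside them for CypD and for paraquat.

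With paraquat the genes spread wider, in both directions. Of the 29 genes 13 had a log2 ratio above 0 and 16 below, with a median of -0.07 against -0.03 for all genes tested, of which 47.4% lay above 0 (49.2% at 20 CPM or more). Folds of the 28 genes other than Me3 ran from 1.31 times lower (Dlst) to 1.40-fold higher (Mpc2). The 1 gene at least 1.5-fold higher was Me3, with 30 against 21 counts (1.91-fold, 1.06 to 3.51), and 0 were at least 1.5-fold lower. The shares over all genes were 8.15% and 10.5%, and 3.53% and 3.43% at 20 CPM or more.

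Intervals above 1 were found for 6 genes (20.7%, against 11.2% of all genes and 16.7% of those with at least 20 CPM). They were Mpc2, Mdh2, Me1, Me3, Slc25a1 and Mdh1. Intervals below 1 were found for 5 genes (17.2%, against 9.77% and 12.7%), and they were Pdha1, Dlst, Idh2, Acly and Got2.

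Dlst, the succinyltransferase core of 2-oxoglutarate dehydrogenase (mm10 chromosome 12, 85110833 to 85134845, plus strand), had 476 counts in Flag, 672 in CypD, 494 in the control, 457 in mastoparan and 282 in paraquat. In CPM these were 188, 195, 160, 160 and 122, so paraquat was the lowest and the control and mastoparan libraries were alike. Paraquat was 1.31 times below the control (1.13 to 1.52). Of the other subunits of the same complex, Ogdh, its first enzyme, was at 96.3 CPM in the control and 99.6 in paraquat, a fold of 1.03 (0.867 to 1.23). Dld, the subunit it shares with pyruvate dehydrogenase, was at 92.8 and 81.4 CPM, a fold of 0.878 with an interval (0.727 to 1.06) that holds both 1 and the ratio of Dlst. Whether the 3 ratios differ was not tested.

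Mdh2 (mm10 chromosome 5, 135778480 to 135790398, plus strand) had 1452, 2059, 1701, 1653 and 1638 counts in the Flag, CypD, control, mastoparan and paraquat libraries. In CPM it was at 573, 596, 552, 580 and 710, with paraquat above the other 4. The fold over the control was 1.29 (1.20 to 1.38). Mdh1 was at 542 CPM in the control and 604 in paraquat, a fold of 1.12 (1.04 to 1.20), while on deposited TPM it was at 457 in the control and 344 in paraquat. Mpc2 (mm10 chromosome 1, 165460637 to 165481214, plus strand) had 108, 145, 130, 135 and 136 counts, or 42.6, 42.0, 42.2, 47.4 and 58.9 CPM. The first 3 of these libraries were alike and paraquat was the highest, at 1.40-fold over the control (1.09 to 1.79). Its partner Mpc1 had 159 counts in the control and 109 in paraquat, a fold of 0.916 (0.711 to 1.18).

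Me1 was at 118 CPM in the control and 148 in paraquat, 1.25-fold higher (1.08 to 1.46). The mastoparan and paraquat comparisons share their control library, so the 2 values for Me1, and those for Mdh1, whose lowest CPM was in that control, are not independent. Acly, ATP citrate lyase, which makes cytosolic acetyl-CoA, was 1.26 times lower (1.08 to 1.46), at 154 CPM in the control and 123 in paraquat. Slc25a1, the citrate carrier of the inner membrane that supplies Acly with citrate, was 1.21-fold higher (1.09 to 1.33), at 280 and 338 CPM.

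The paraquat library differed from the control along transcript length, over all genes. The median log2 ratio was 0.25 in the shortest of 4 equal groups of tested genes (99 to 1544 bases) and -0.19 in the longest (3711 bases and more). The 29 genes had a median length of 2132 bases, and 7 of them lay in the shortest group. With this trend removed, Mpc2, which has a mean transcript length of 848 bases, went from a log2 ratio of 0.48 to 0.12, and Mpc1 from -0.13 to -0.43. Mdh2 stood at 0.28 and Me1 at 0.45 after removal, against 0.36 and 0.33 before it, and Dlst at -0.28 against -0.39. Acly, with 3953 bases, went from -0.33 to -0.13. On deposited TPM the median of all genes was -0.28, and 25 of the 29 genes were below 0, with a median of -0.41. Relative to that shift, 11 lay above and 18 below it: Mdh2 0.36 above, Me1 0.16 above, and Dlst 0.39, Acly 0.35 and Mdh1 0.13 below. Of the 13 genes above 0 on scaled counts, 4 were above 0 on TPM. Me1, Mdh1 and Slc25a1 were among those that changed sign (-0.12, -0.41 and -0.12 on TPM), and the deposited mean transcript length of Mdh1 was 2122 bases in paraquat and 1753 in the control.

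**Figure D4:**
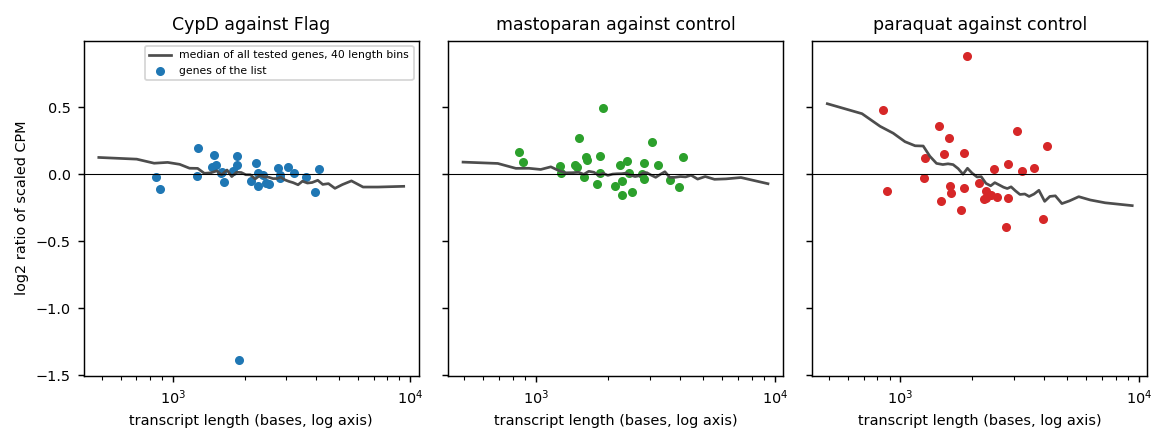
Log2 ratio of scaled CPM against transcript length (bases, log axis) in the 3 comparisons, with 1 point for each of the 29 genes and a line for the median of all tested genes in 40 length bins. The line falls from short to long transcripts, most steeply for paraquat, and most of the 29 genes lie in the middle of the length range.

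Among the other pathway genes, 4 of 41 tested (9.76%) were at least 1.5-fold lower with paraquat and 0 higher, against 10.5% and 8.15% of all genes. Their median was -0.14, against -0.03 for all genes. With the length trend removed their median was -0.02. Among those with the largest ratios at 5 CPM or more were Ogdhl (an isoform of the 2-oxoglutarate dehydrogenase first enzyme, 33 against 98 counts, log2 ratio -1.13), Myc (a regulator of glutamine use and a known reprogramming factor, of which any introduced copy and the cells' own cannot be told apart, -0.80) and Mcee (methylmalonyl-CoA epimerase, 0.55, and 0.19 with the length trend removed). Ogdhl was 2.22 times lower (1.48 to 3.41), and stood at -0.96 with the length trend removed. The succinate dehydrogenase genes Sdhb and Sdhc were 1.34-fold (1.19 to 1.51) and 1.28-fold higher (1.13 to 1.45), and stood at 0.20 and 0.05 on the log2 scale with the length trend removed, from 0.42 and 0.35. On deposited TPM Sdhc was at -0.35. Sdha (0.934-fold, 0.825 to 1.06) and Sdhd (1.09-fold, 0.962 to 1.24) had intervals that held 1.

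The day-8 libraries were also set beside the day-4 libraries. The 5 libraries are 5 conditions and not replicates of a day, and day cannot be told apart from any difference in handling between the sets. All 3 day-8 libraries lay below both day-4 libraries for 13 of the 29 genes (44.8%), and above both for 4 (13.8%). Over all 13584 genes that averaged 1 CPM or more these shares were 28.1% and 28.5%, and over the genes with at least 20 CPM 34.9% and 26.6%. With the paraquat library left out, 14 genes lay below and 5 above, against 33.1% and 34.3% of all genes. Longer transcripts more often lay below at day 8 over all genes, from 16.4% in the shortest of 4 equal length groups to 35.2% in the longest. On deposited TPM 17 of the 29 genes lay below and 1, Slc25a1, above, against 32.6% and 20.3% of all genes in that unit. The epithelial markers and several of the fibroblast markers given above also differed between the days. Of the neural markers, Nes and Tubb3 were lower at day 8 and Sox1 and Elavl4 overlapped. Pax6 was higher at day 8, at no more than 1.73 CPM. The part of these markers in the values of the 29 genes was not tested. The genes named in the next paragraphs were picked after their values were seen.

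By step, all 3 day-8 libraries lay below both day-4 libraries for 4 of 7 pyruvate entry genes (Pdha1, Dlat, Dld and Pcx) and above for 0, with the libraries nearest across the days within counting error for Dlat and Pcx. Dld, dihydrolipoamide dehydrogenase, was at 124 and 131 CPM in the Flag and CypD libraries and at 92.8, 97.5 and 81.4 CPM in the control, mastoparan and paraquat libraries, so the mean of day 4 was 1.41 times that of day 8. In the cycle itself, Cs, Idh3a, Dlst and Suclg2 lay below, Sucla2 lay above and the other 6 of 11 overlapped, with the nearest libraries within counting error for Suclg2 and Sucla2. Cs was at 318 and 318 CPM at day 4 and at 244, 258 and 257 CPM at day 8. Idh3a was at 167 and 167 CPM and then at 127, 136 and 114 CPM. Idh3b and Idh3g, the other subunits of that enzyme, overlapped between the days. The mitochondrial malic enzyme gene Me2 was at 66.7 and 63.7 CPM at day 4 and at 46.4, 46.7 and 47.7 CPM at day 8.

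Acly and Slc25a1 differed in opposite directions. Acly (mm10 chromosome 11, 100476353 to 100528000, minus strand) had 541 and 675 counts in the Flag and CypD libraries and 476, 412 and 283 in the control, mastoparan and paraquat libraries. In CPM it was at 214 and 195 at day 4 and at 154, 145 and 123 at day 8, with a day-4 mean 1.46 times that of day 8. Slc25a1 (mm10 chromosome 16, 17925223 to 17928219, minus strand) had 498 and 683 counts at day 4 and 864, 789 and 781 at day 8. In CPM it was at 197 and 198, then at 280, 277 and 338, so every day-8 library was well above both day-4 libraries and the means differed 1.51-fold. The libraries nearest to each other across the days differed beyond counting error for 8 of the 17 genes without overlap: Pdha1, Dld, Cs, Idh3a, Dlst, Me2, Acly and Slc25a1. This was not counted over all genes, so no background share stands beside it. For Slc25a1 that nearest pair differed 1.40-fold (1.26 to 1.55). For the other 9, Dlat, Pcx, Suclg2, Sucla2, Idh1, Me1, Got1, Got2 and Glud1, the interval of the nearest pair held 1. This concerns the nearest pair alone, and no interval was computed for the day means.

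**Figure D5:**
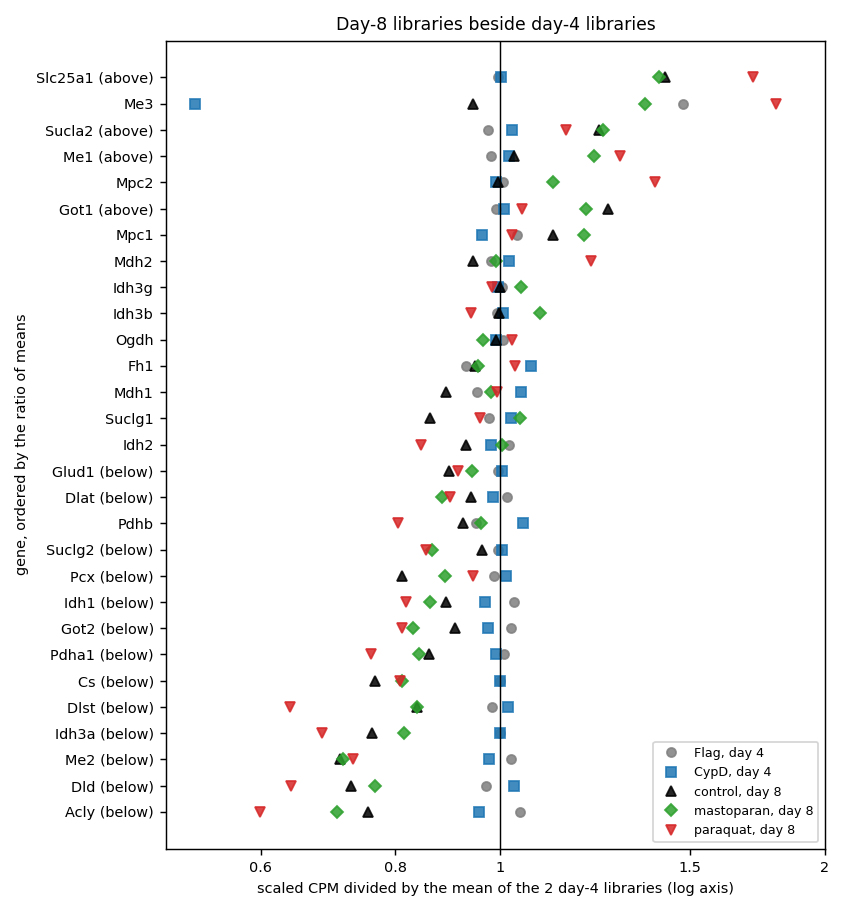
Scaled CPM of each of the 29 genes in the 5 libraries, divided by the mean of the 2 day-4 libraries (log axis), ordered by the ratio of the day means. Genes are marked above or below where all 3 day-8 markers lie beyond both day-4 markers, with Slc25a1 at the top at a ratio of means of 1.51 and Acly at the bottom.

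The promoters of Acly and Slc25a1, which differed in opposite directions between the days, and of Dlst, which was lowest in paraquat, are shown as the 250 bases before the start (RefSeq, GRCm38.p6, the assembly of mm10). All 3 read 5' to 3' on the gene's strand. Capitals mark matches to 5 motifs searched on both strands: the antioxidant response element core TGACNNNGC, the E-box CACGTG that Myc and its relatives bind, the palindromic site of NRF1, the estrogen-related receptor half-site AAGGTCA and the GC box GGGCGG. Slc25a1 lies at chr16:17928220-17928469 (minus strand), Acly at chr11:100528001-100528250 (minus strand) and Dlst at chr12:85110583-85110832 (plus strand).
Slc25a1: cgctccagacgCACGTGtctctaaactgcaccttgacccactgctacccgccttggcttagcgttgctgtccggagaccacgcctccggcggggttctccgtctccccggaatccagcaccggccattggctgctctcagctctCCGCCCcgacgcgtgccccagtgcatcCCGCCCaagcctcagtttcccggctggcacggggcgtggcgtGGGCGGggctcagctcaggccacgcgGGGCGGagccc
Acly: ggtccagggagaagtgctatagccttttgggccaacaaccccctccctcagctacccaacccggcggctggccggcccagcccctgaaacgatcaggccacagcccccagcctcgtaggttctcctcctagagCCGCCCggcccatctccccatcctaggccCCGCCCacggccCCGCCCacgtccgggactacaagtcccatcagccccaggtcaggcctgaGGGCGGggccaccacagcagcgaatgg
Dlst: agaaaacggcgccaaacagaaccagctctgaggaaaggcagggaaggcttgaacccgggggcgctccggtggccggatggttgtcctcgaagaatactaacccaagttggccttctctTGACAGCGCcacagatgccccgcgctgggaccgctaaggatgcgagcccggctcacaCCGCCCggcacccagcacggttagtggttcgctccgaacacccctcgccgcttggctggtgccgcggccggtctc

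Slc25a1 held 1 E-box and 4 GC boxes in this window, Acly 4 GC boxes and no E-box, and Dlst 1 antioxidant core and 1 GC box. RefSeq windows were found for 27 of the 29 genes, with 36 different windows among them. The GC box, bound by Sp factors and common in CpG-rich promoters, was in 61.1% of these windows and in 32.7% of the 32851 windows of all genes. The E-box was in 13.9% against 6.02%, from 3 genes (Ogdh, Pcx and Slc25a1), of which Ogdh has overlapping windows. The antioxidant core was in 11.1% against 10.2% (Dlst, Idh3g, Mpc1 and Sucla2), and Me1 was not among them. The estrogen-related receptor half-site was in 1 window (Got1), and the NRF1 site in 0, against 4.08% and 0.782% of all windows. Repeated windows were dropped for the 27 genes but not from the windows of all genes, which were also not limited to genes expressed here. A match to these letters is a description of the sequence and does not show that a factor binds there.

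Of the other pathway genes, 42 passed the minimum over the 5 libraries, 10 (23.8%) lay below and 8 (19%) above at day 8, shares under the 28.1% and 28.5% of all genes. The succinate dehydrogenase gene Sdha lay below, with a day-4 mean 1.29 times that of day 8, while Sdhb, Sdhc and Sdhd overlapped. Slc25a10, the dicarboxylate carrier, was at 77.7 and 64.6 CPM at day 4 and at 37.3, 39.3 and 38.1 CPM at day 8. Above at day 8 lay Pdk1 and Pdk2, kinases that switch pyruvate dehydrogenase off, while Pdk3 and Pdk4 overlapped. Pdk1 was at 90.0 and 82.2 CPM at day 4 and at 179, 179 and 152 CPM at day 8. Pck2, which turns mitochondrial oxaloacetate into phosphoenolpyruvate, was at 56.8 and 58.2 CPM and then at 137, 127 and 170 CPM, a ratio of means of 2.52. Acss2, which makes acetyl-CoA from acetate in the cytosol and nucleus, was at 22.5 and 17.7 CPM and then at 41.2, 35.8 and 36.8 CPM.

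The spread over all 5 libraries depended on the unit. On scaled CPM the highest library was under 1.5 times the lowest for 24 of 29 genes (82.8%), against 37.0% of all genes and 55.3% of those with at least 20 CPM. On deposited TPM, a setting added after the data were seen, this held for 14 of 29 (48.3%), against 26.4% of all genes and 39.9% of those with at least 20 CPM. On scaled CPM the ratio of highest to lowest was 1.06 for the gene with the smallest spread, 1.27 at the median and 3.45 for Me3. Together the 29 genes held 0.434% and 0.432% of all TPM in the Flag and CypD libraries, 0.405% and 0.408% in the control and mastoparan libraries and 0.342% in paraquat. Their share of all counts was 0.564%, 0.568%, 0.529%, 0.538% and 0.502% in the same order.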

How the data were processed

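Gene expression was measured by RNA sequencing of total RNA, with 1 library per group. The submitters' processing notes name Bowtie2 2.2.5 and the mm10 build, and no counting program or gene annotation is named in the labels or headers. Every deposited table holds, per the file headers, the length, expected count, TPM and FPKM of a gene. The deposited FPKM were not used. Reads of amplified libraries are not independent molecules, so intervals cover counting error only.

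Gene IDs were matched to GENCODE M21 of GRCm38, the assembly of mm10 (28756 of 29267, 98.3%). Expected counts were rounded and scaled by TMM (edgeR 4.0.16, R 4.3.3). Log2 ratios used CPM with a pseudocount of 0.5, where the libraries of a day averaged 1 CPM or more. All 29 genes passed. Folds carry exact Clopper-Pearson 95% intervals. A gene counted as past a threshold at a log2 ratio of 0.58 (1.5-fold). Shared sequence was the share of 49-base windows, on either strand, also found in another gene's transcripts. Python 3.11.15, numpy 2.4.6, scipy 1.17.1, pandas 2.3.3 and matplotlib 3.10.9 were used, and the code was tested on simulated data.

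Named in full are genes of the list past 1.5-fold with an interval that leaves out 1, the 4 largest absolute log2 ratios per comparison, and the 4 largest among other pathway genes with at least 5 CPM. A few of the latter are not reported here. Alternatives were library totals, DESeq2 1.42.0 size factors, upper-quartile factors, deposited TPM, and other minimums and pseudocounts. Others left out the 20 most abundant genes and those of the mitochondrial chromosome, removed length and GC trends, or left out genes sharing sequence. The genes, lists and alternatives were chosen with earlier results of these data known.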

Additional observations from a re-analysis of the deposited data

How the results depend on the processing

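Each group has 1 library, so no replicate could be left out and no setting gives an error between cultures. No paired analysis was possible because no group has more than 1 library. On deposited TPM the median log2 ratio of the 29 genes was -0.04 for CypD against Flag and -0.41 for paraquat against control. In the same setting the highest library was under 1.5 times the lowest for 14 genes (48.3%, against 26.4% of all genes). With CypD 0 genes were at least 1.5-fold lower, against 7.38% of all genes. With mastoparan 1 (3.45%) was at least 1.5-fold higher (Me3), against 4.67% of all genes. With paraquat 4 (13.8%) were at least 1.5-fold lower (Dlat, Dlst, Acly and Got1), against 22.1% of all genes. In all 3 day-8 libraries 1 gene lay above both day-4 libraries, against 20.3% of all genes. Me1 and Mdh1 changed sign for paraquat on TPM, to -0.12 and -0.41. The other pathway genes had a median of -0.36 for paraquat on TPM and -0.24 with library totals, where the 29 genes had -0.17. With library totals the median of all genes was -0.13, and 4 of the 29 genes (13.8%) had an interval above 1 and 12 (41.4%) below, against 7.54% and 16.5% of all genes. With TMM these were 6 and 5 genes. The cause of these shifts was not tested. Of the medians and counts recomputed under alternatives, 153 stayed within the spread over genes or within 1.5 times, and the 10 that did not are those given here. At this depth a floor of 3 counts equals 0.869 to 1.30 CPM, which limits Me3 most.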
